A study of Mus musculus with 4 samples.

Results

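Accessible chromatin, mapped by ATAC-seq (insertion of sequencing adaptors into open DNA by a transposase), was examined at 9 genes of cytokine signalling in large peritoneal macrophages (LPMs): the 6 STAT genes Stat2, Stat3, Stat4, Stat5a, Stat5b and Stat6, and the 3 genes of the SOCS family Socs1, Socs3 and Cish. Overlapping peaks (1 bp or more) from the 4 peak lists were joined, which gave 70744 regions. A region was assigned to a gene when one of the gene's transcription start sites (TSS) was the TSS nearest to the region's midpoint, or when the region overlapped the gene body. This gave 62 regions, 33 at STAT genes and 29 at SOCS family genes. The rule uses no accessibility value beyond the peak calls, but the genes were chosen with earlier results of these data known. A single region, in an intron of Stat3, counts for both Stat3 and Stat5a.

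STAT proteins are latent transcription factors. Janus kinases bound to cytokine receptors phosphorylate them, after which they form dimers, enter the nucleus and bind the GAS element, a palindrome of TTC and GAA. Stat2 instead works with a partner STAT and IRF9 at the interferon-stimulated response element (ISRE). SOCS proteins close the loop: their genes are STAT targets, and their products inhibit the kinases or block the receptor. In macrophages Stat3 serves the IL-6 and IL-10 receptors, Stat5a and Stat5b serve GM-CSF, Stat6 serves IL-4 and IL-13, and Stat4 is best known as the IL-12 effector of T and NK cells.

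LPMs are the resident macrophages of the peritoneal cavity. They were sorted, as CD45+ B220- CD11b+ CD115+ F4/80hi MHCIIlo cells, from 9-week-old C57BL/6 mice of 2 genotypes. Both, Rxrab fl/fl as well as LysMCre+ Rxrab fl/fl, carry floxed alleles of Rxra and Rxrb, which encode retinoid X receptors (RXRs). In LysMCre+ Rxrab fl/fl mice, called RXR-deficient below, Cre under the LysM promoter, which is active in myeloid cells, deletes them, and the controls, Rxrab fl/fl, were littermates without Cre. Every library was made from 40000 sorted cells in 1 library batch, and there are 2 a genotype: replicates 1 and 3 for Rxrab fl/fl, replicates 1 and 2 for LysMCre+ Rxrab fl/fl. The labels do not say that libraries came from separate mice, so the spread between them may be technical. The study also states that ATAC-seq samples which did not group with their genotype were left out, so that this spread may be understated.

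The libraries were of unequal yield, and this bears on every count below. Rxrab fl/fl replicate 1 had 38048 peaks and replicate 3 had 16097, against 65421 and 55581 for the RXR-deficient replicates 1 and 2. Depth, estimated from the lowest background of each list and the genome size preset of MACS2, was 18.4 and 9.92 M tags in these control libraries and 12.4 and 10.1 M in the RXR-deficient ones. Rxrab fl/fl replicate 3 therefore stands apart for its number of peaks and not for its depth alone. In the 15199 regions called in all 4 libraries, its median fold enrichment was 7.52, whereas the other 3 libraries lay between 12.0 and 15.1. At the targeted genes, 14 of 26 regions of Rxra had a peak in control replicate 1 and 6 in replicate 3, beside 25 and 22 in the RXR-deficient replicates 1 and 2. Peaks across these genes do not show whether exons were deleted, so they do not test the genotype labels.

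Of the 62 regions, Rxrab fl/fl replicate 1 called 38 as peaks, replicate 3 called 13, and the RXR-deficient replicates 1 and 2 called 57 and 50. Thus 13 were called in all 4 libraries, a pattern that 21.5% of all regions show. A further 21 were missed only in Rxrab fl/fl replicate 3 (25.5% of all regions), and 14 were called in both RXR-deficient libraries but in neither control library (22.8% of all regions). No region showed the opposite pattern, which covers 0.0452% of all regions. Of the other regions, 10 were called in a single RXR-deficient library, 3 in Rxrab fl/fl replicate 1 alone and 1 in replicate 1 of both genotypes. Those in Rxrab fl/fl replicate 1 alone lay 879 bp upstream of Cish, within 1 kb of its TSS (fold enrichment 4.46), in a Stat4 intron 4.72 kb from the nearest Stat4 TSS (5.05), and 8.66 kb upstream of Socs3 (6.83). Among all regions, 25.0% were called in a single RXR-deficient library, 1.90% in a single Rxrab fl/fl library and 3.27% in other combinations, where the STAT and SOCS regions had 16.1%, 4.84% and 1.61%. Shares of 21.0% in all 4 libraries and 22.6% in RXR-deficient LPMs alone lay near those of the whole peak set, and the share missed only in Rxrab fl/fl replicate 3, 33.9%, was higher. In bulk libraries fewer cells with a region open and less accessibility per cell cannot be told apart. When the same number of peaks, 16097, was taken from each library, 2 of 25 regions were called in the RXR-deficient libraries alone and 1 in the Rxrab fl/fl libraries alone, beside 7.82% and 7.22% of all regions. Without Rxrab fl/fl replicate 1, 35 of 59 regions were called in the RXR-deficient libraries alone (49.2% of all regions), and without LysMCre+ Rxrab fl/fl replicate 2 it was 22 of 61 (44.3% of all regions).

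**Figure D1:**
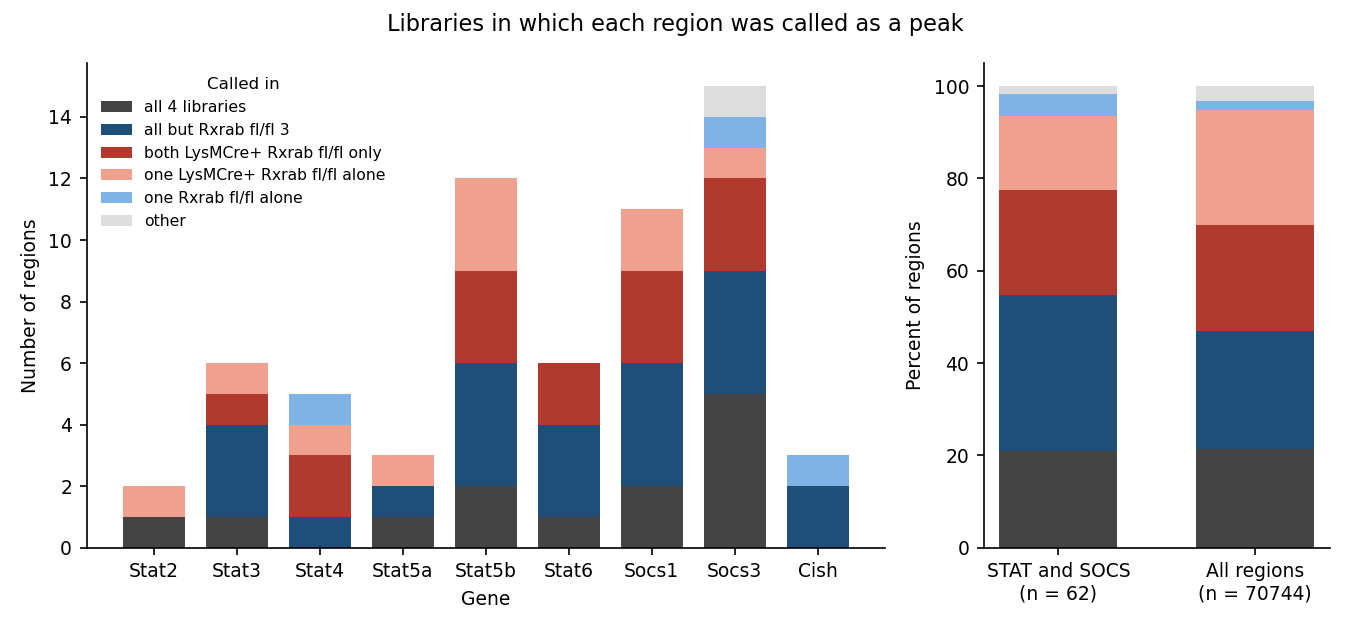
Left, number of regions of each gene by the libraries in which they were called as a peak. Right, the same patterns as a percent of the 62 STAT and SOCS regions and of all 70744 regions. Socs3 (15), Stat5b (12) and Socs1 (11) hold most regions, and the dark red share is 22.6% for these genes and 22.8% for all regions.

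The genes differed in how much open chromatin surrounded them. Stat5b (chr11:100780731-100850581, minus strand) had 12 regions, 11 of them over its gene body of 69.9 kb, which is 1.57 regions per 10 kb. Stat6 (chr10:127642986-127660987, plus strand) had 6 regions, at 1.67 per 10 kb of its body, and Stat3 (chr11:100886806-100939540, minus strand) had 6, at 0.948 per 10 kb. Stat4 (chr1:51987148-52107189, plus strand) had 5 over the longest body of the 9 genes, 120.0 kb, which is 0.417 per 10 kb. Stat2 (chr10:128270498-128292853, plus strand) had 2 and Stat5a (chr11:100859351-100885169, plus strand) had 3. The SOCS genes are short, and most of their regions lay outside them. Socs3 (chr11:117966079-117969366, minus strand) had 15, Socs1 (chr16:10783808-10785536, minus strand) had 11 and Cish (chr9:107296659-107302784, plus strand) had 3, but only 1 region of each overlapped the gene body. Of all 62 summits, 30 were intergenic, 26 intronic, 4 in a 5' UTR and 2 in a 3' UTR. At STAT genes 21 of 33 summits were in an intron of a STAT gene, whereas at SOCS family genes 23 of 29 were intergenic and 5 lay in introns of a neighbouring gene, Clec16a.

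A promoter region was one whose midpoint fell between 1 kb before and 200 bp after one of the gene's TSSs, and accessibility is given as fold enrichment, the tag pileup at the peak summit over the local background. The highest promoter was that of Stat2, with 24.8 in Rxrab fl/fl replicate 1, 11.9 in replicate 3, and 26.8 and 21.3 in the RXR-deficient replicates 1 and 2. The same order of libraries is kept below. It ranked between percentiles 73.7 and 98.2 of the promoter regions of its library. Its summit also lies in a 3' UTR exon of the neighbouring gene Apof. The Stat3 promoter had 18.5 and 17.1 against 19.5 and 18, at percentiles 74.0 to 96.4 of promoter regions. It was the most even of the promoters, and in Rxrab fl/fl replicate 3 it stood higher than the Stat2 promoter.

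Stat5a and Stat5b encode closely related factors and lie side by side on chromosome 11. The open Stat5a promoter was not the outermost TSS but the internal one, 1.13 kb further downstream. There fold enrichment was 22.2 and 16.0 in Rxrab fl/fl and 21.1 and 20.1 in RXR-deficient LPMs. The outermost Stat5a TSS had a single peak, of 4.11, in RXR-deficient replicate 1. Stat5b had 2 open promoters. The outer one, whose 300-bp RefSeq window has a GC content of 82.7%, had 14.5 and 8.96 in Rxrab fl/fl and 12.7 and 8.79 in RXR-deficient LPMs. The internal one, 28.0 kb downstream with 47.3% GC, had 14.3 and 4.50 against 15.5 and 13.0, so that Rxrab fl/fl replicate 3 was far below the other 3 libraries. The Stat6 promoter had 9.94 and 6.86 against 11.0 and 8.22, at percentiles 27.6 to 40.4 of promoter regions. Apart from the outermost Stat5a TSS, these promoters were called in each of the 4 libraries. Weaker promoter regions lay 943 bp upstream of Stat6, with 4.21 in Rxrab fl/fl replicate 1 and 4.96 and 5.17 in RXR-deficient LPMs, and 500 bp upstream of Stat5b, with 4.56 in RXR-deficient replicate 2 alone.

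Stat4 was the exception among the STAT genes, since no library had a promoter region at either of its TSSs. Its most enriched region, in an intron 35.1 kb into the gene, had values of 6.93 in control replicate 1 and of 7.56 and 8.75 in the RXR-deficient libraries, with no peak in control replicate 3. Another 2 Stat4 regions were called in the RXR-deficient libraries alone, at 5.60 to 6.07. They lay in a 5' UTR exon 359 bp downstream of the internal TSS and in an intron 3.22 kb downstream of it. The first of them lies just beyond the limit of 200 bp used here for a promoter. The 300-bp window at the outermost Stat4 TSS holds few CpG dinucleotides, with an observed-to-expected ratio of 0.104 against a median of 0.383 over 32817 promoter windows. No Stat4 region exceeded a fold enrichment of 8.75 in any library.

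Among the inhibitors, Socs3, which blocks IL-6 family receptors, had the most open promoter. Its values were 17.7 and 12.7 in Rxrab fl/fl and 17.3 and 12.5 in RXR-deficient LPMs, so the genotypes overlapped before library medians were subtracted. The Socs1 promoter, whose product inhibits the kinases directly, had 9.27 and 5.90 against 8.78 and 8.70, with percentiles from 16.8 to 38.7 of promoter regions. The promoter of Cish, a classic Stat5 target that dampens growth factor and cytokine receptors, had 10.0 in Rxrab fl/fl replicate 1 and 12.1 and 9.80 in RXR-deficient LPMs, while replicate 3 of Rxrab fl/fl had no peak there. In each of these 3 libraries Cish stood above the Socs1 promoter.

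**Figure D2:**
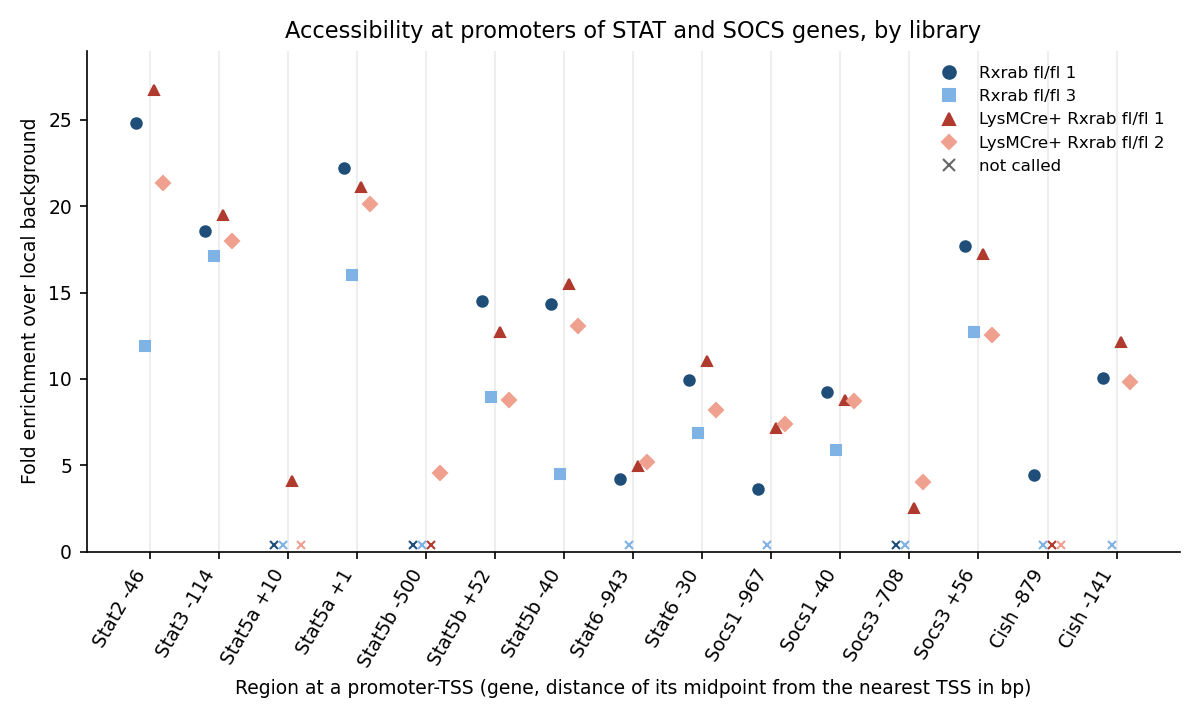
Fold enrichment (y axis, linear) of the 15 regions at promoters of the STAT and SOCS genes in each library; crosses mark libraries without a peak. In these values, from which library medians were not subtracted, the ranges of the 2 genotypes overlap at each promoter called in all 4 libraries. Rxrab fl/fl replicate 3 lies far below the rest at Stat5b −40 (4.50), and Stat4 has no region to show.

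The inhibitor promoters are shown because they hold letter matches to the GAS element or the ISRE. The sequences run from 250 bases before the annotated start to 30 bases from it onwards, on the strand of the gene (RefSeq promoter table, GRCm38.p6), at chr9:107296409-107296688 (plus) for Cish, chr11:117969337-117969616 (minus) for Socs3 and chr16:10785507-10785786 (minus) for Socs1. Capitals mark matches to the GAS letters TTCNNNGAA in Cish and Socs3, and to the ISRE core GAAANNGAAA, on either strand, in Socs1.
Cish promoter: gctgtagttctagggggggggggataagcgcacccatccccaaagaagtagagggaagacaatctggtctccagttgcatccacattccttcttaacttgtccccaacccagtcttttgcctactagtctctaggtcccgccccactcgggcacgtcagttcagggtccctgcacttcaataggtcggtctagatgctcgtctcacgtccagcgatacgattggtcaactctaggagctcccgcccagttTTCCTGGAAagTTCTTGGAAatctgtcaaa
Socs3 promoter: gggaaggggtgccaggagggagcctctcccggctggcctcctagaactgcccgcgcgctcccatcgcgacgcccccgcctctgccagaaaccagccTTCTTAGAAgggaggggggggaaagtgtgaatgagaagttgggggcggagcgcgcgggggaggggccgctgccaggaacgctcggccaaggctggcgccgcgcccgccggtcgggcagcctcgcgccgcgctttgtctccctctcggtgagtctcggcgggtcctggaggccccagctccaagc
Socs1 promoter: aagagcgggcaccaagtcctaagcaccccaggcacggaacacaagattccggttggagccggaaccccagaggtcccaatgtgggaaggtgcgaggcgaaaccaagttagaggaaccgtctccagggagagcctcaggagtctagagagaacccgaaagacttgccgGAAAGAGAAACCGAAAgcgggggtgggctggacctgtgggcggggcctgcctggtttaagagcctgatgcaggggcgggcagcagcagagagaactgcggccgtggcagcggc
The Cish promoter carried 2 GAS matches, TTCCTGGAA and TTCTTGGAA, the first of which begins at the annotated start itself, with the other 11 bases on. The Socs3 promoter carried 1, TTCTTAGAA, beginning at base −154 from the start. The Socs1 promoter had no GAS match but 2 overlapping ISRE cores, GAAAGAGAAA and GAAACCGAAA. By comparison, 8.29% of 32817 promoter windows in the table hold a GAS match and 3.43% an ISRE core. The Stat2 promoter window also held an ISRE core, as did that of an internal Stat4 TSS, so that 3 of the 12 promoter windows of these genes had one and 2 had a GAS match.

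GAS matches were also counted within 100 bp of the summit of each region, and they fell mostly at the inhibitors. They were found in 7 of 29 SOCS family regions (24.1%) and in 1 of 33 STAT regions (3.03%), against 5.58% of all regions. The 7 comprised the Cish promoter, the Cish region 16.5 kb downstream, 3 regions of Socs3 (56 and 6995 bp downstream, and 6.87 kb upstream) and 2 of Socs1 (16.5 kb and 109 kb downstream). The STAT region was 6.18 kb upstream of Stat6. Of these 8 regions 2 were called in all 4 libraries, 5 were missed only in Rxrab fl/fl replicate 3 and 1 was called in RXR-deficient LPMs alone. The ISRE core was found in 4 of 62 regions (2122 of 70744 regions in all), the 4-base-spaced form TTCNNNNGAA preferred by Stat6 in 1 (4.58% of all regions), the PU.1 core GAGGAA in 25 (36.0% of all) and the GATA letters AGATAA in 5 (6.44% of all). Matches to different motifs, or repeats of the same motif, shared bases in 4 of the 62 windows. No window matched AGGTCA repeats spaced as DR1 or DR5, the RXR arrangements, which 0.0283% and 0.0226% of all regions matched. These are letter matches and carry no measure of binding.

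To ask whether loss of RXR altered accessibility at these loci, the log2 of fold enrichment, less the median of the library, was compared with limma over all 15199 regions called in the 4 libraries. A region passed at a Benjamini-Hochberg adjusted p under 0.05 with a log2 fold change past 1. None of the 13 regions tested passed in either direction, and the rest of the 62 lacked a value in at least 1 library. Over all regions 0.0395% passed as higher in LysMCre+ Rxrab fl/fl and 0.0461% as higher in Rxrab fl/fl, while 2 of the 13 and 3345 of 15199 (22.0%) had an unadjusted p under 0.05. The median log2 fold change of the 13 was −0.24, against −0.09 over all regions, and 9 of 13 were negative. At the Socs3 promoter it was −0.40 ± 0.23 (SE, n = 2 per genotype; 95% interval −0.88 to 0.09; adjusted p = 0.314 from limma), and at the Socs1 promoter −0.13 ± 0.22 (−0.61 to 0.35; adjusted p = 0.762 from limma). Log2 fold changes at the STAT promoters were 0.11 for Stat2 (95% interval −0.34 to 0.55), −0.29 for Stat3 (−0.86 to 0.28), −0.24 for Stat5a (−0.74 to 0.26), −0.48 and 0.45 for the outer and internal Stat5b promoters (−0.94 to −0.01, and −0.08 to 0.99) and −0.16 for Stat6 (−0.64 to 0.31). On fold enrichment the intervals left out a log2 change of 1 in either direction at these promoters, but not smaller ones. At the internal Stat5b promoter the upper end, 0.99, was close to 1. On the tag pileup at its summit the change there was 1.06 (95% interval 0.42 to 1.69). A change of 1 is therefore not excluded, given 2 libraries per genotype and a spread that may be understated. Without Rxrab fl/fl replicate 1, the weaker control library was the only one, and the median log2 fold change over all regions was −0.15. In that setting the log2 fold change was −0.71 at Stat3, −0.63 at Socs3 and −0.60 at the outer Stat5b promoter. It was −0.48 at Stat5a, −0.37 at Stat6 and −0.27 at Socs1. The internal Stat5b promoter (0.82) and Stat2 (0.16) went the other way. None of these values was past the fold threshold.

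The lowest adjusted p belonged to a region 6995 bp downstream of the Socs3 TSS, chr11:117962185-117962558. Fold enrichment there was 5.05 and 3.82 in Rxrab fl/fl and 3.89 and 3.03 in RXR-deficient LPMs, and the log2 fold change was −0.72 ± 0.23 (SE; adjusted p = 0.109 from limma). After centring, both RXR-deficient libraries lay below both Rxrab fl/fl libraries at this region, at the Socs3 promoter, at the Socs3 region 5.84 kb downstream and at the outer Stat5b promoter, which makes 4 of 13 against 32.9% of all regions. Both lay above at the Stat2 promoter and the internal Stat5b promoter, 2 of 13 against 22.3%. Tested on the tag pileup at the summit in place of fold enrichment, the internal Stat5b promoter passed, with pileups of 62 and 9 tags in Rxrab fl/fl and 90 and 89 in RXR-deficient LPMs (log2 fold change 1.06 ± 0.28; adjusted p = 0.0426 from limma). It was the only one of the 13 to pass on that measure, where 2.53% of all regions passed as higher in LysMCre+ Rxrab fl/fl and 4.9% as higher in Rxrab fl/fl. With the same regions and centring it no longer passed without Rxrab fl/fl replicate 3 (0.80, adjusted p = 0.124 from limma) or without RXR-deficient replicate 2 (0.76, adjusted p = 0.195 from limma). On fold enrichment the log2 fold change was 0.45 in all 4 libraries and 0.09 without Rxrab fl/fl replicate 3.

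**Figure D3:**
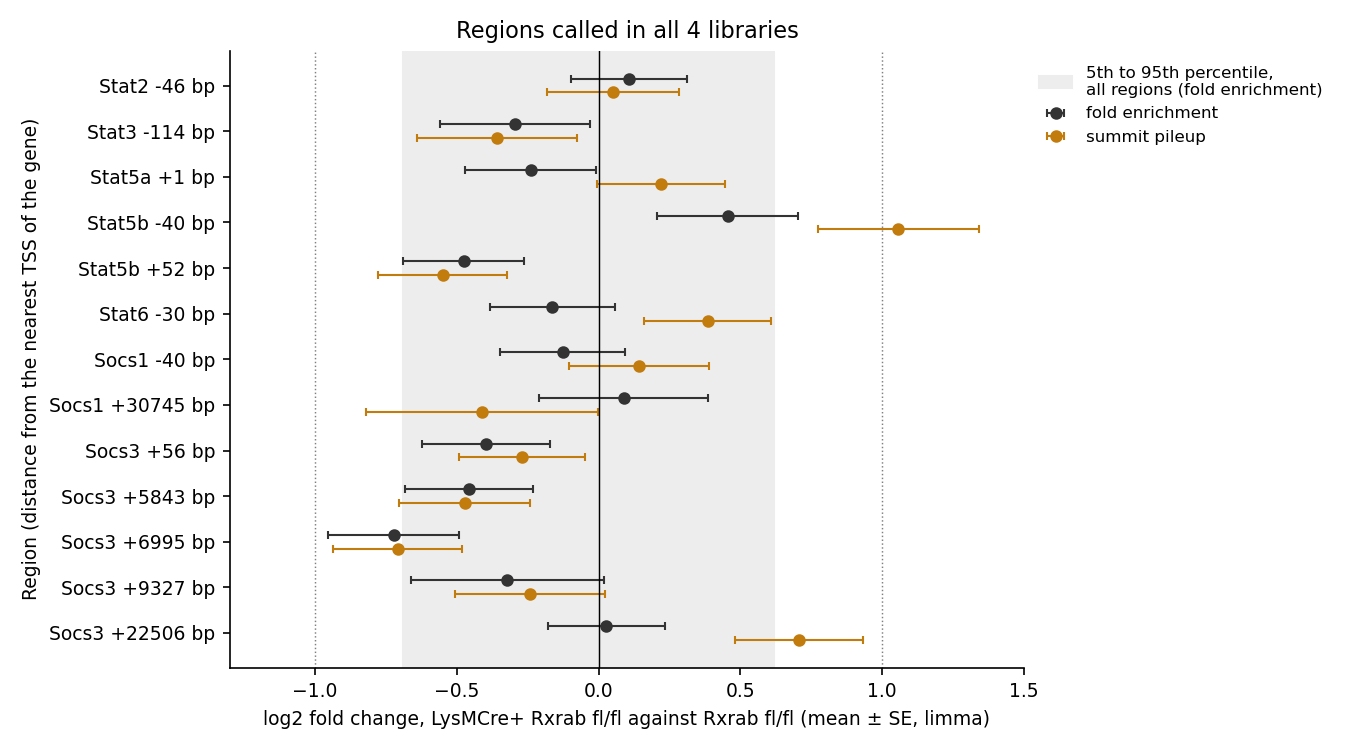
Log2 fold change (x axis, mean ± SE from limma, 2 libraries per genotype) of fold enrichment and of the summit pileup at the 13 regions called in all 4 libraries. The grey band spans the 5th to 95th percentile of fold enrichment changes over all 15199 regions, −0.69 to 0.62, and in fold enrichment only the Socs3 region at +6995 bp (−0.72) falls outside it.

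Away from the promoters, values in all 4 libraries could seldom be had. Rxrab fl/fl replicate 3 had a peak in 5 of the 47 regions outside promoters (10.6%), and in 14.4% of all regions outside promoters. The comparison was therefore repeated for the 33263 regions called in the other 3 libraries, and again for the 35577 regions called in at least 2 libraries. At a region that replicate 3 missed, both fits use the same 3 values: Rxrab fl/fl is represented by replicate 1 alone, its spread is taken to be that of the other libraries, and the p-values carry no replicate check of that genotype. The fits differ in the regions used for centring, and the log2 fold change was 0.33 higher in the second at all 21 regions missed only in replicate 3. In the first fit, 2 of 34 STAT and SOCS regions passed as higher in RXR-deficient LPMs, against 2.21% of all regions, and 0 as higher in Rxrab fl/fl, against 1.21%. The first was an intronic region of Stat5b and the second an intergenic region beyond Socs3.

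The Stat5b region, chr11:100805358-100805995, lies 44.9 kb into the gene from its outermost TSS and 7.69 kb from the nearest internal TSS. Fold enrichment was 7.07 in Rxrab fl/fl replicate 1 and 20.1 and 16.9 in RXR-deficient LPMs, and no peak was called in Rxrab fl/fl replicate 3. The log2 fold change was 1.16 ± 0.24 (95% interval 0.62 to 1.69; adjusted p = 0.0357 from limma) in the first fit. It was 1.49 ± 0.28 (adjusted p = 0.0101 from limma) in the second, where centring uses the regions shared by all 4 libraries. In both RXR-deficient libraries it was the most enriched region of the gene, at percentiles 94.1 and 94.5 of all regions, above both promoters, while in Rxrab fl/fl replicate 1 it stood at percentile 39.8. Its summit window, chr11:100805592-100805792 (plus strand), holds a PU.1 core and the GATA letters, each on the opposite strand and separated by a single base (capitals).
Stat5b intron: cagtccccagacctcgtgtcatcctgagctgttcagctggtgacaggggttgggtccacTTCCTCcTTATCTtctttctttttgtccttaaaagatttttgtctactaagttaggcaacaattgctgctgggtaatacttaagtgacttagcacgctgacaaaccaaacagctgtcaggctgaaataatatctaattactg

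The Socs3 region, chr11:117930750-117931312, lies 38.3 kb downstream of the TSS. Fold enrichment was 4.21 in Rxrab fl/fl replicate 1 and 12.9 and 11.1 in RXR-deficient LPMs, again with no peak in Rxrab fl/fl replicate 3. The log2 fold change was 1.28 ± 0.24 (95% interval 0.74 to 1.81; adjusted p = 0.0303 from limma) in the first fit and 1.61 ± 0.28 (adjusted p = 0.00816 from limma) in the second. Its summit window, chr11:117930859-117931059 (plus strand), overlaps no RefSeq exon, holds none of the motifs searched and is 76.6% GC with an observed-to-expected CpG ratio of 0.987.
Socs3 downstream: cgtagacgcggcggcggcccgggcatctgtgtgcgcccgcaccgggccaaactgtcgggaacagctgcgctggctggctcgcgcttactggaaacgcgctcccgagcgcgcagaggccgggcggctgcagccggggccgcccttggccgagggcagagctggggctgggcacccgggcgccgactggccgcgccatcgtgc

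In the fit over regions called in at least 2 libraries, 4 of 35 STAT and SOCS regions passed as higher in RXR-deficient LPMs, where 7.73% of all regions did, and 0 as higher in Rxrab fl/fl, where 0.385% did. All 4 lacked a peak in Rxrab fl/fl replicate 3, so that the single control library limits each of them. The other 2 were a region 967 bp upstream of Socs1 and a region 16.5 kb downstream of Cish. Fold enrichment upstream of Socs1 was 3.60 in Rxrab fl/fl replicate 1 and 7.14 and 7.37 in RXR-deficient LPMs (log2 fold change 1.12 ± 0.29, adjusted p = 0.0284 from limma). Downstream of Cish it was 5.58 against 10.2 and 10.8 (1.02 ± 0.30, adjusted p = 0.0413 from limma). Neither passed with the centring on regions called in the other 3 libraries, where the same values gave log2 fold changes of 0.78 (adjusted p = 0.0942 from limma) and 0.68 (adjusted p = 0.131 from limma). The Cish region, chr9:107312764-107313485, has 1 GAS match in its summit window, chr9:107312856-107313056 (plus strand, match in capitals).
Cish downstream: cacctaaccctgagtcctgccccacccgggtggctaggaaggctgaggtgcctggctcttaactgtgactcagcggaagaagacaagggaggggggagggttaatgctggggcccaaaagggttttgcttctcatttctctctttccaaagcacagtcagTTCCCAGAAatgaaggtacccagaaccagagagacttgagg

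**Figure D4:**
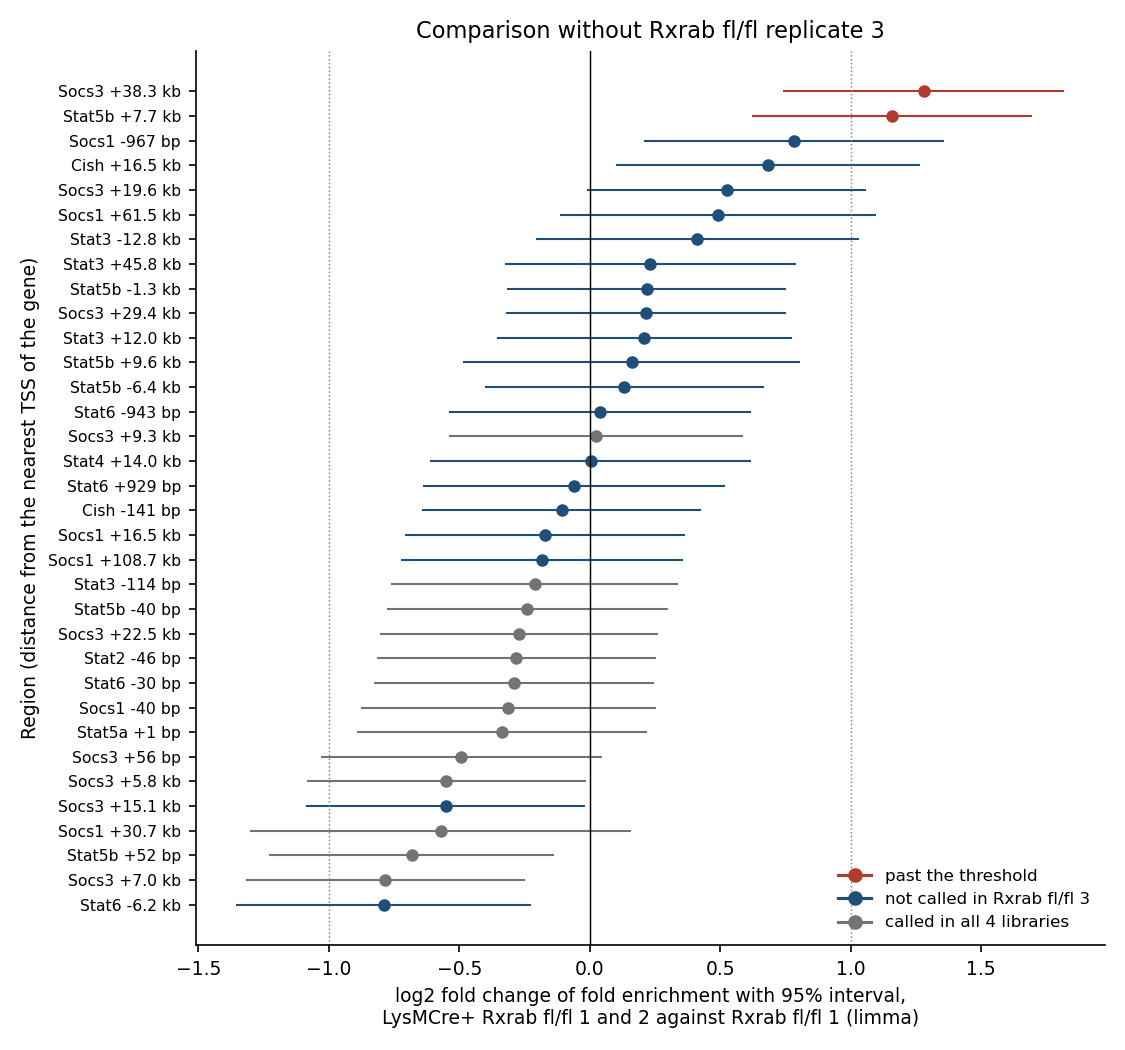
Log2 fold change of fold enrichment (x axis, point and 95% interval from limma) at the 34 STAT and SOCS regions called in the 3 libraries other than Rxrab fl/fl replicate 3, in order. The 2 regions past the threshold, Socs3 +38.3 kb (1.28) and Stat5b +7.7 kb (1.16), are in red, and regions that replicate 3 missed fill most of the upper part.

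The 21 regions missed only in Rxrab fl/fl replicate 3 were ranked on fold enrichment before centring. Rxrab fl/fl replicate 1 was below both RXR-deficient libraries in 16, between them in 3 and above both in 2. The matching count over all 18064 regions of this pattern is not given, so these counts cannot be read as particular to the STAT and SOCS regions. The 2 in which it was highest were the region 6.18 kb upstream of Stat6 (7.56 against 6.47 and 4.04) and the Socs3 region 15.1 kb downstream (8.31 against 7.40 and 5.96). In the fit of the other 3 libraries the median log2 fold change of the 21 was 0.21, and that of all 18064 regions with this pattern was 0.15. The strongest of the 21 was the Socs3 region 29.4 kb downstream, chr11:117939637-117940316, with 13.9 in Rxrab fl/fl replicate 1 and 21.9 and 16.3 in RXR-deficient LPMs (log2 fold change 0.22, 95% interval −0.32 to 0.75, in the first fit, and 0.55 in the second). On the summit pileup over regions called in at least 2 libraries, an alternative chosen after seeing the data, it passed (log2 fold change 1.46), again with 1 control library. So did the Socs3 region 19.6 kb downstream (1.34). On that measure 10.4% of all regions passed as higher in RXR-deficient LPMs. The region 29.4 kb downstream was more enriched than the Socs3 promoter in LysMCre+ Rxrab fl/fl replicates 1 and 2, but not in Rxrab fl/fl replicate 1. The strongest region of Socs1, 30.7 kb downstream, was called in all 4 libraries but varied within each genotype, with 17.5 and 5.77 in Rxrab fl/fl and 21.2 and 8.97 in RXR-deficient LPMs. Its log2 fold change was 0.09 (95% interval −0.56 to 0.73).

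The 14 regions called in RXR-deficient LPMs alone were spread over 6 of the 9 genes: 3 each at Stat5b, Socs1 and Socs3, 2 each at Stat4 and Stat6, and 1 at Stat3. None was at Stat2, Stat5a or Cish, and only the one 708 bp upstream of Socs3 was at a promoter. The strongest was in an intron of Stat6, chr10:127649995-127650441, 7.23 kb from the TSS. Its fold enrichment was 15.9 and 11.0 in the RXR-deficient replicates 1 and 2, above the Stat6 promoter in the same libraries. The geometric mean, 13.2, stood at percentile 98.2 of the 16133 regions of this pattern, whose median was 6.32. The summit window, chr10:127650146-127650346 (plus strand), holds none of the motifs searched.
Stat6 intron: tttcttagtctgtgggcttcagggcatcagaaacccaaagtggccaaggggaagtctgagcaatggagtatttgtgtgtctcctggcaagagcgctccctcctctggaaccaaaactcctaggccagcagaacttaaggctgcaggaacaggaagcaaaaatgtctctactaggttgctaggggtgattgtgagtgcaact
Next came 3 regions downstream of Socs1, at 71.8 kb (13.1 and 9.55), 18.2 kb (9.12 and 7.86) and 95.5 kb (9.46 and 6.73), at percentiles 76.5 to 94.9 of this pattern. The regions at 71.8 and 95.5 kb lie in introns of Clec16a. The other 10 had geometric means between 2.87 and 6.59. A region without a peak is not one without signal: where background was lowest, peaks began at a fold enrichment of 3.03 in control replicate 1 and of 3.40 in control replicate 3. The difference in level at these regions can therefore not be given.

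**Figure D5:**
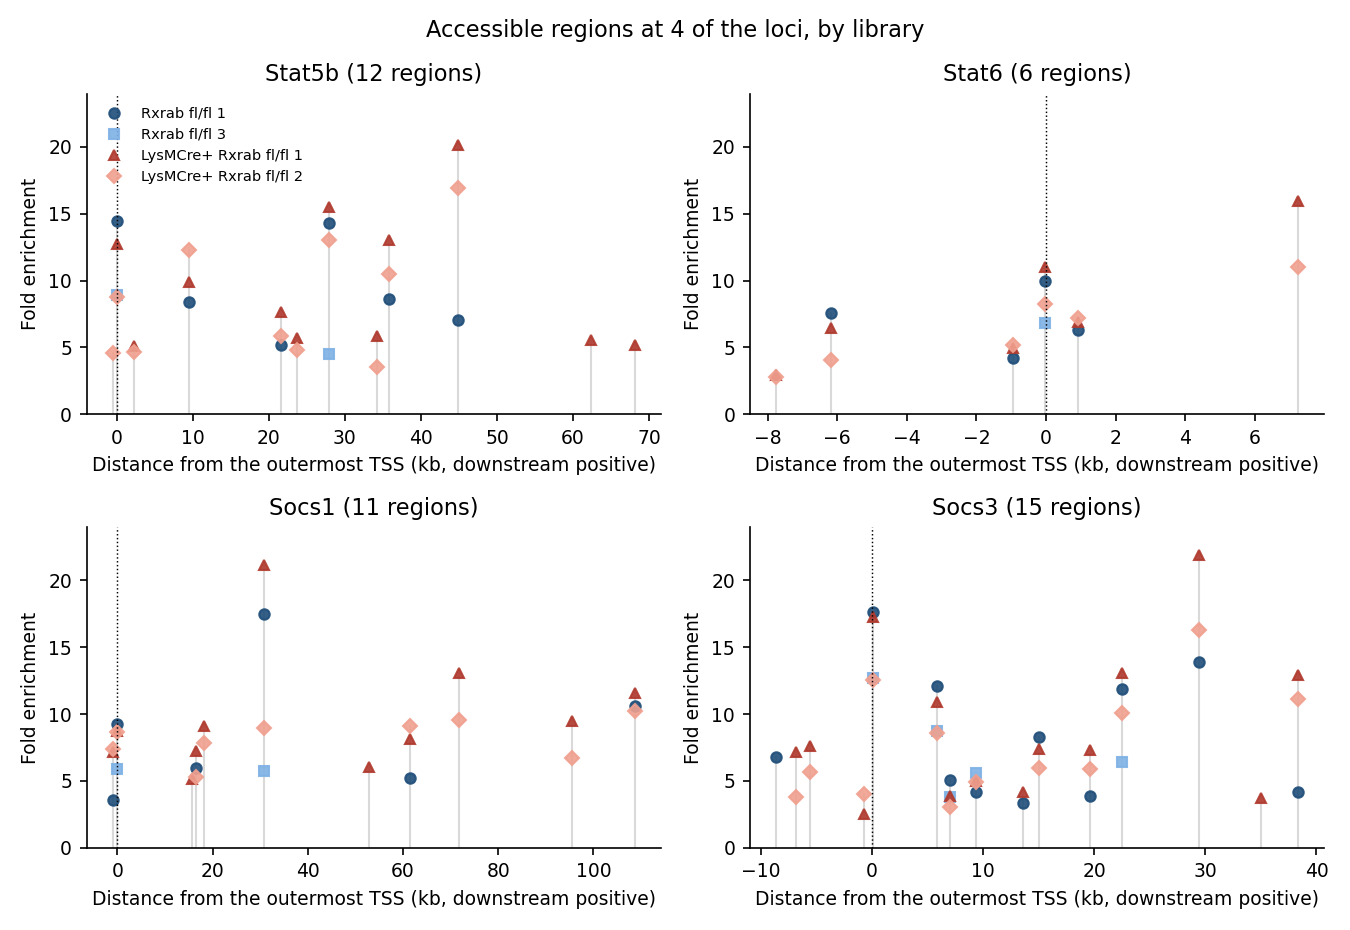
Fold enrichment in each library (y axis, linear) against distance from the outermost TSS (x axis, kb) for regions of Stat5b, Stat6, Socs1 and Socs3; a library without a peak has no symbol. The Stat5b region at 44.9 kb, the Stat6 region at 7.23 kb and the Socs3 region at 38.3 kb show only or mainly red symbols, whereas the promoters at 0 carry all 4.

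The rest of the pathway was examined through 47 genes, of which 45 are autosomal; Il2rg and Il13ra1 are X-linked, and reads on the sex chromosomes had been removed. Their 339 regions included 87 called in all 4 libraries (25.7%) and 53 called in RXR-deficient LPMs alone (15.6%), with 0 in Rxrab fl/fl alone. None of the 87 passed in log2 fold enrichment, and their median log2 fold change was −0.09. On the summit pileup 6 of 87 passed as higher in RXR-deficient LPMs and 1 as higher in Rxrab fl/fl, beside 2.53% and 4.9% of all regions. The 6 lay near the receptor genes Il21r, Il4ra, Csf2ra, Csf2rb and Lifr and near the phosphatase gene Ptpn1, and the 1 near Socs6. Of these, 4 were among the 10 tested regions of receptors of gamma-chain, beta-chain and type 2 cytokines, none of which passed on fold enrichment (median log2 fold change 0.19). Over regions called in at least 2 libraries 8 of 196 passed as higher in RXR-deficient LPMs and 0 as higher in Rxrab fl/fl, a smaller share than the 7.73% of all regions.

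Il21r, the IL-21 receptor gene, held 3 of these 8. At its region at −9.37 kb from the TSS (upstream), fold enrichment was 4.63 in Rxrab fl/fl replicate 1 and 16.0 and 9.17 in RXR-deficient LPMs (log2 fold change 1.495, adjusted p = 0.0120 from limma). None of the 8 had a peak in Rxrab fl/fl replicate 3, so each sets 1 control library, with its spread taken from the other libraries, against 2. The others were near Ptpn1 (log2 fold change 1.47), Jak1 (1.35), Bcl6 (1.15) and Ifngr1 (1.09), and in Bcl2l1 (1.15). The 5 other SOCS genes, Socs2, Socs4, Socs5, Socs6 and Socs7, had 0 such regions of 16, as did the receptors of the gp130 and IL-10 families, with 0 of 39. Promoters of the 4 Janus kinase genes were called in all libraries except that of Jak3 in Rxrab fl/fl replicate 3. No region passed in log2 fold enrichment over all 4 libraries in any of these lists. Their largest promoter values were −0.86 at Socs7 (adjusted p = 0.0720 from limma), −0.84 at Csf2ra (adjusted p = 0.0917 from limma) and 0.70 at Il12rb2 (adjusted p = 0.0983 from limma).

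Marker genes were read beside these results, although the gate (B220-, CD115+, F4/80hi) is meant to remove B cells, T and NK cells, granulocytes and mesothelial cells. The 7 LPM marker genes had 60 regions, and the promoters of 4 to 6 of them were called in each library. At the promoter of Gata6, the LPM lineage factor, fold enrichment was 11.3 and 7.61 in Rxrab fl/fl and 5.80 and 8.61 in RXR-deficient LPMs (log2 fold change −0.76, adjusted p = 0.148 from limma). The highest values at any Gata6 region were 11.3 and 7.61 against 11.2 and 12.1. Promoter changes were smaller at Icam2 (−0.10), Timd4 (−0.14) and Adgre1 (−0.41). The Selp promoter had 4.52 in control replicate 1 and 6.78 and 6.67 in RXR-deficient LPMs, and that of Cxcl13 had 6.40 in control replicate 1 alone. Markers of small peritoneal or monocyte-derived macrophages, many of them named by the study for these same libraries, had 51 regions, of which the control libraries called 18 and 5 and the RXR-deficient libraries 42 and 40. Their promoters were called for 2 and 1 of the 7 genes in Rxrab fl/fl and for 6 and 6 in RXR-deficient LPMs, and 16 regions (31.4%) were called in RXR-deficient LPMs alone, a pattern of 22.8% of all regions, of 5 of the 60 LPM marker regions (8.33%) and of 7 of 9 mesothelial marker regions (77.8%). Over all regions, 52.0% and 21.9% were called in control replicates 1 and 3 and 90.7% and 77.2% in RXR-deficient replicates 1 and 2. Of 24 regions of T or NK cell markers, 13, 3, 22 and 17 were called in control replicates 1 and 3 and RXR-deficient replicates 1 and 2. Those of granulocyte or mast cells were called 4, 2, 11 and 5 times of 11, those of B cells 2, 0, 7 and 4 times of 8, and those of mesothelial cells 2, 1, 9 and 9 times of 9, in the same order of libraries. The B cell gene Cd79a, the mast cell gene Cpa3 and the mesothelial gene Wt1 had no region in any library, but other genes of the same lists did. At Ebf1 (B cell) and S100a8 (granulocyte) control replicate 3 had no peak. The other libraries, in the same order, had highest fold enrichments of 11.7, 12.0 and 10.4 at Ebf1 and 14.0, 16.6 and 16.1 at S100a8. At Upk3b (mesothelial) the values were 8.76 and 5.88 in Rxrab fl/fl and 15.2 and 13.4 in RXR-deficient LPMs. The part of these markers in the STAT and SOCS values was not tested.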

How the data were processed

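ATAC-seq was analysed in 4 libraries of LPMs, 2 per genotype. The authors aligned reads to mm10 with Bowtie2, removed duplicates and reads on mitochondrial and sex chromosomes, and called peaks in each library separately with MACS2 2.1.1 (tags extended to 200 bp, q value of 0.05), and discarded peaks in blacklisted regions. Per the file headers and labels, the deposited lists give for each peak the fold enrichment of its summit over local background, a ratio, the −log10 of its p-value and q-value, and a display score, which was not used. Read counts per region were not analysed here. 

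Whole-number pileups at summits were solved from fold enrichment and the −log10 p-value (at least 99.9969% of peaks in each library). Peaks sharing 1 bp were merged and placed by midpoint on 43783 RefSeq transcripts of GRCm38.p6. Log2 fold enrichment, centred on library medians, was compared between genotypes by lmFit and eBayes of limma 3.58.1 (R 4.3.3). The threshold was a log2 fold change past 1 with a Benjamini-Hochberg adjusted p under 0.05. It was checked on simulated data with independent noise at the fitted spread of each region. Such data hold no weak library, so the check does not bear on Rxrab fl/fl replicate 3. Motifs were searched on both strands within 100 bp of the strongest summit and in 32817 RefSeq promoter windows. The regions named are each gene's promoters, its strongest region, those past the threshold and part of those called in 1 genotype. Of other genes, those with a region past the threshold or the largest promoter changes are named. The members and gene lists were chosen with earlier results of these data known. Alternatives were the q value, peak number, peak extent, overlap, each library left out, summit pileup, quantile normalization, no centring, a trend of variance with level, no fold threshold and regions called in at least 2 libraries; the summit pileup over such regions, and with each library left out, was added after seeing the data. Depth was 9.92 to 18.4 M tags per library, and levels carry only this precision.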

Additional observations from a re-analysis of the deposited data

How the results depend on the processing

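The count of 14 STAT and SOCS regions called in RXR-deficient LPMs alone and of 0 in Rxrab fl/fl alone became 2 and 1 with the same number of peaks per library, and ranged from 14 to 35 and from 0 to 3 with a library left out. The number with a peak in every library, 13, ranged from 13 to 34, the highest without Rxrab fl/fl replicate 3. These counts stayed within 1.5 times at a q value of 0.01, with peaks reduced to summits and at 50% overlap. Regions higher in RXR-deficient LPMs by limma numbered 0, but 1 on the summit pileup, 4 over regions called in at least 2 libraries, 6 on the pileup over those regions (10.4% of all regions; an alternative chosen after seeing the data) and 0 to 2 with a library left out; regions higher in Rxrab fl/fl numbered 0 in every setting tried. Without Rxrab fl/fl replicate 1, the Socs3 regions 6995 bp and 9.33 kb downstream came to −0.994 and −0.999, just short of the fold threshold of 1. In that setting 10 of the 13 log2 fold changes were negative and 3 positive. No centring moved the median log2 fold change of all regions from −0.09 to 0.28, and with it Stat6 (0.20), Stat5a (0.13), Stat3 (0.0747), Socs1 (0.24) and the Socs3 region 9.33 kb downstream (0.0465) changed sign. On the summit pileup Stat6 (0.39), Stat5a (0.22) and Socs1 (0.14) promoters and the Socs1 region 30.7 kb downstream (−0.41) changed sign. With a library left out, signs were not kept at the promoters of Stat2 (−0.28 to 0.16), Stat5b internal (−0.24 to 0.82) and Socs1 (−0.31 to 0.0333), nor at the regions 30.7 kb downstream of Socs1 (−0.57 to 0.54) and 22.5 kb (−0.27 to 0.0473) and 9.33 kb (−0.999 to 0.0221) downstream of Socs3. The regions used for centring also changed with each library left out, most without Rxrab fl/fl replicate 3 (33263 regions), so these ranges mix both changes. With the regions and centring of all 4 libraries kept, the internal Stat5b promoter stayed positive, at 0.09 to 0.81. The summit pileup change at the internal Stat5b promoter ranged from 0.76 to 1.35 (chosen after seeing the data). The cause was not tested. The 2 libraries per genotype, and peaks in place of reads, limit every comparison. No paired analysis was possible because the groups compared share only 1 replicate number.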
